A study of Homo sapiens with 6 samples.

Results

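The peaks described here lie on the sequences of the human assembly (GRCh38.p13) that are not chromosomes 1 to 22, X, Y or M. They were chosen by the sequence name in the first column of each deposited H3K9me3 peak list, and no measured value was used. They number 917 of 23653 peaks in BJ fibroblasts with a control guide (sgCtrl), 551 of 14715 with PURPL guide 1 (sgRNA-PURPL#1) and 399 of 12190 with PURPL guide 2 (sgRNA-PURPL#2). Together they fall on 210 sequences. BJ is an established line of human skin fibroblasts, and all 3 cell lines were made for CRISPR interference (CRISPRi), in which a guide RNA directs a repressor to a gene without cutting it. PURPL is a long non-coding RNA gene that p53 induces. Each cell line gave 1 H3K9me3 library and 1 input library, so no difference between the lines has a replicate check and none is tested. The files hold positions and scores of peaks without expression, so the fibroblast label could not be set against marker genes.

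H3K9me3, trimethylation of lysine 9 on histone H3, is written by enzymes such as SUV39H1, SUV39H2 and SETDB1 and is bound by HP1 proteins, which compact the chromatin. It is the typical mark of constitutive heterochromatin, above all of satellite repeats around centromeres, and also covers silent copies of the ribosomal RNA genes. Much of that repeated DNA could not be assembled into chromosomes. An unlocalised sequence has a known chromosome but no position on it, an unplaced sequence has no known chromosome, an alternate sequence holds another version of a region that a chromosome already carries, and a patch corrects or adds to a chromosome. A read from a repeat, an alternate or a patch can match several places, and the treatment of such reads is not given in the sources used here.

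Sequence names in the lists are bare identifiers. By prefix, 169 sequences had GL or KI names and 41 had names of patches (KN, KQ, KV, KZ or ML). By the number ranges of the GRCh38 naming, which are background knowledge and a division added after the data were seen, the GL and KI names comprised 28 unlocalised, 70 unplaced and 71 alternate sequences. The deposited score is the authors' own whole number for each peak, at least 10, with no named scale. Sequencing depth is unknown. No letters of these sequences are shown because only a gene table was used here, and it lists 76 genes on sequences that it does not name.

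H3K9me3 covered less of these sequences in both PURPL-guide lines than in the control. Peaks covered 1153, 658 and 425 kb in the control, guide 1 and guide 2 lists. The guide 1 length was thus 57.0% and the guide 2 length 36.9% of the control length. Here and below, a length kept or left is such a ratio of total lengths, whatever the positions of the peaks. Of the control bases themselves, 37.4% lay under guide 1 peaks and 27.5% under guide 2 peaks. On the chromosomes these shares of bases were 39.7% and 31.3%. Peak number left was 60.1% and 43.5%. Median peak widths were 862, 790 and 632 bp in the same order. Peaks of at least 5000 bp numbered 25, 14 and 10. The lists are ordered control, guide 1, guide 2 in each of these values.

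On chromosomes 1 to 22, X and Y, 52.6% and 40.6% of the control length was left, close to the values outside them. The length left outside the chromosomes was 1.08 times that on the chromosomes with guide 1 and 0.909 times with guide 2. When only peaks at or above the pooled median score were taken, these ratios were 1.36 and 1.49, and with the same number of highest-scoring peaks taken from each list they were 1.37 and 1.19, so the direction for guide 2 turned. That last setting also left 91.6% and 68.0% of the control length on these sequences, and 110% and 98.3% of the peak number, so the direction of the peak number turned for guide 1. The gene-free stretches here are 30 intervals of chromosomes 1 to 22 and X in which no gene lies for 1 Mb or more, a division taken from earlier work on these data. They kept 62.9% and 55.3% of the control length, and the remaining parts of the chromosomes 34.8% and 15.2%. The unplaced, unlocalised and patch sequences lay between these in both guides.

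**Figure D1:**
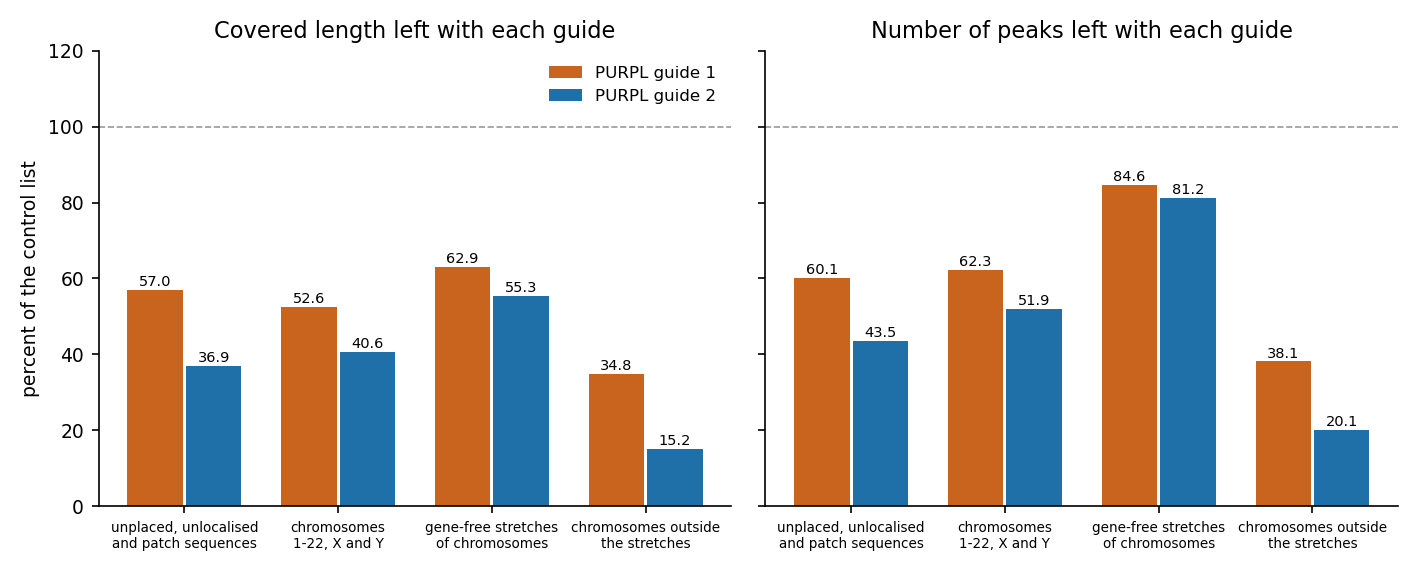
Bars give the covered length (left) and the number of peaks (right) with each PURPL guide as a percent of the control list, for the sequences outside the chromosomes and 3 divisions of the chromosomes. The dashed line marks the control level. Outside the chromosomes 57.0% and 36.9% of the length was left, between the gene-free stretches and the rest of the chromosomes. Each bar is 1 pair of libraries, so there are no error bars.

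The classes differed more with guide 2 than in the values for guide 1. GL and KI names had 913, 521 and 350 kb under peaks in the 3 lists, which left 57.1% and 38.3%. Patch names had 240.0, 136 and 75.2 kb, which left 56.8% and 31.4%. In the added division, unlocalised sequences had 277 kb, 179 kb and 134 kb (64.8% and 48.3% left). Unplaced sequences had 519 kb, 271 kb and 157 kb (52.3% and 30.2% left). Alternate sequences had 118 kb, 70.8 kb and 59.6 kb (60.2% and 50.6% left). These are differences within single pairs of libraries and were not tested.

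Unlocalised sequences can be set beside the chromosome they belong to. Those of chromosome 2 kept 68.7% and 56.8% of 98.7 kb, against 41.8% and 29.7% on chromosome 2 itself. Those of chromosome 14 kept 74.7% and 56.9% of 70.9 kb, against 51.2% and 40.5% on chromosome 14. Those of chromosome 22 had 51.3% and 27.4% of 27.8 kb, against 56.9% and 43.2% on chromosome 22. These 3 chromosomes hold the 3 largest unlocalised lengths in the control, and the order against the chromosome rests on 1 sequence for chromosome 14, and with guide 1 also for chromosome 22. Without GL000225.1, the other 6 sequences of chromosome 14 kept 18.6% and 11.7% of 18.9 kb, below chromosome 14 in both guides. Without KI270735.1, the other 6 of chromosome 22 kept 63.2% and 32.9% of 18.5 kb, above chromosome 22 with guide 1 and below it with guide 2. On chromosome 2, KI270716.1 without KI270715.1 kept 82.6% and 71.8%.

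Coverage was concentrated on few sequences. The 10 with the longest control coverage held 42.3% of the control length, while 79 sequences had a single control peak. GL000224.1, an unplaced sequence, was first with 35, 26 and 17 peaks over 69868, 42963 and 21212 bp in control, guide 1 and guide 2. KI270442.1, unplaced, had 41, 21 and 14 peaks over 67695, 24980 and 13084 bp. KI270715.1, unlocalised on chromosome 2, had 38, 28 and 25 peaks over 59036, 35008 and 27564 bp. All 3 follow the order control, guide 1, guide 2.

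GL000225.1, unlocalised on chromosome 14, had 35, 39 and 31 peaks over 51965, 49411 and 38087 bp. This sequence therefore kept 95.1% and 73.3% of its control length. Between positions 5448 and 137949 the same series of peaks recurred in the lists. Of the 35 control peaks, 26 overlapped a peak of both guides. Over whole lists 28.8% of control peaks did so, and outside the chromosomes 22.6%. The 26 had a median score of 77, and the 4 control peaks absent from both guides had one of 17.5. Those weak control peaks included 178229 to 179879 and 198290 to 200148, near the far end, where guide 2 had none.

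KN538372.1, a patch, showed the widest gap between the guides among these 10. It had 27, 24 and 11 peaks over 49381, 36577 and 5765 bp, which left 74.1% and 11.7%. Mean peak width was 1829, 1524 and 524 bp. The highest-scoring peak of the sequence, at 210448 to 211176 in the control with a score of 114, was present with guide 1 (score 92) and guide 2 (score 120).

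KI270742.1 had 43040, 12144 and 7033 bp (28.2% and 16.3% left), and KI270751.1 had 39164, 12957 and 3651 bp (33.1% and 9.32% left). Both are unplaced. Of the 36 control peaks of KI270742.1, 26 overlapped no peak of either guide, against 50.2% of control peaks over whole lists. None of the control peaks of KI270742.1 scored above 32. KI270716.1, the second sequence of chromosome 2, had 39650, 32751 and 28480 bp and so kept 82.6% and 71.8%. The patch KN196487.1 had 34396, 20014 and 6670 bp (58.2% and 19.4% left), and the patch ML143345.1 33599, 23541 and 21217 bp (70.1% and 63.1% left).

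**Figure D2:**
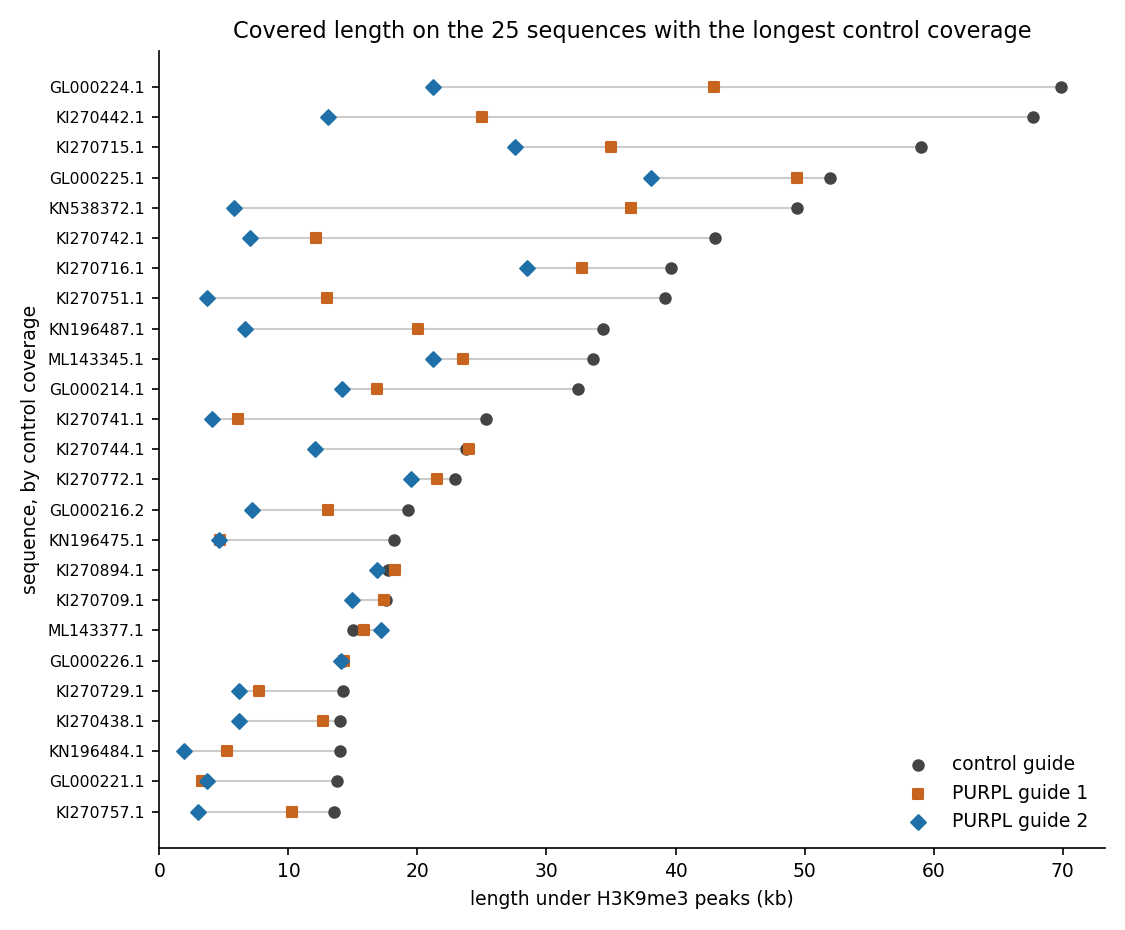
Points give the length under H3K9me3 peaks (kb) on each of the 25 sequences with the longest control coverage, for the control guide (circle), PURPL guide 1 (square) and PURPL guide 2 (diamond), 1 library each. The order control, guide 1, guide 2 holds for the first 10 sequences, from 69.9 kb on GL000224.1 downwards. The points of KI270894.1 and GL000226.1 lie close together.

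Of the 50 sequences with at least 5 control peaks, 26 had at most 50% of their control length with guide 1 and 42 with guide 2. Among all 74 sequences with that many peaks, the 24 chromosomes included, the shares were 43.2% with guide 1 and 85.1% with guide 2. The median share left was 44.9% with guide 1 and 20.8% with guide 2, against 53.0% and 40.3% over the chromosomes. The sequences also scattered more, from 0% to 117% with guide 1 and from 0% to 114% with guide 2, while chromosomes ran from 17.1% to 79.5% and from 22.3% to 73.9%. Many of these sequences rest on few peaks. Guide 2 had a smaller share left than guide 1 on 41 of the 50 sequences and a larger one on 6. The chromosomes had the same order, with a smaller share for guide 2 on 22 of 24. With scores at or above the pooled median, 7 and 9 sequences had at most 50% left, among those that then reached 5 control peaks. How many reached 5 is not given here, so 7 and 9 cannot be set against 26 and 42.

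Among the 26 sequences with at least 10 control peaks, ML143377.1, GL000225.1 and KI270716.1 kept the largest shares when each sequence was ranked by the lower of its 2 guide values. With guide 1 alone, GL000220.1 (116%) and KI270744.1 (101%) stood above GL000225.1 and KI270716.1. On ML143377.1, a patch, peaks numbered 16, 13 and 14 over 15026, 15839 and 17166 bp, so both guides exceeded the control in length. Of that guide length, 42.2% with guide 1 and 37.2% with guide 2 lay under control peaks. Its peaks were weak in all lists, with highest scores of 29, 24 and 52, and its summed score was 308, 216 and 302. Ranked by the higher of the 2 guide values, KI270741.1, KN196475.1 and GL000221.1 kept the smallest shares. With guide 2 alone, KI270751.1 (9.32%) and KN538372.1 (11.7%) were lower than these 3. KI270741.1, unplaced, had 25336, 6110 and 4105 bp, and KN196475.1, a patch, had 18179, 4713 and 4649 bp. GL000221.1, unlocalised on chromosome 3, had 13769, 3299 and 3650 bp. Of its guide length, 44.2% with guide 1 and 2.88% with guide 2 lay under control peaks. With the same number of highest-scoring peaks in each list KN196475.1 had 145% and 155% of the control length, GL000221.1 188% and 208%, and KI270742.1 151% and 114%.

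Coverage exceeded the control on 5 of the 50 sequences with guide 1 and on 1 with guide 2. Over all 74 sequences these shares were 6.76% and 1.35%. Besides ML143377.1, guide 1 exceeded the control on KI270744.1 (23738, 23996 and 12031 bp), KI270894.1 (17751, 18255 and 16866 bp), GL000220.1 (12629, 14624 and 7761 bp) and ML143371.1 (6332, 7430 and 2759 bp). Guide 2 was below the control on each of these 4.

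**Figure D3:**
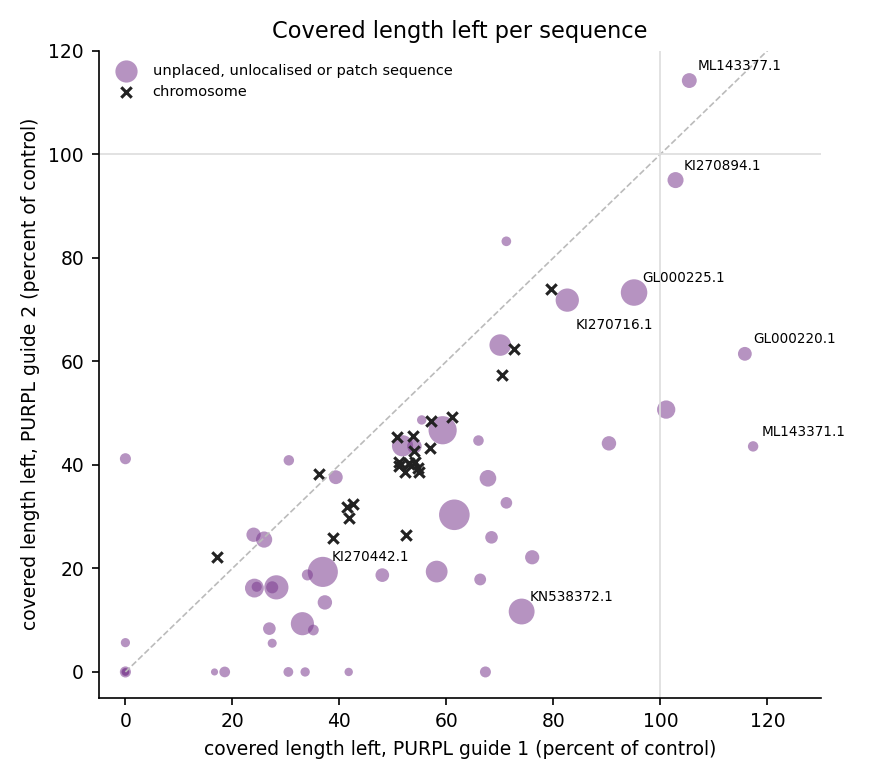
Each circle is 1 of the 50 sequences with at least 5 control peaks, with its area growing with control coverage, and each cross is 1 of the 24 chromosomes. Axes give the covered length left with guide 1 and guide 2 as a percent of the control, and the dashed line marks equal shares. Most circles and most crosses lie below the line, and only ML143377.1 exceeds 100% with both guides.

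The ribosomal RNA gene sequences had mostly weak peaks in all 3 lists. GL000220.1 carries a copy of the 45S ribosomal DNA unit, whose transcript is processed into the 18S, 5.8S and 28S RNAs. It had 10, 9 and 11 peaks with highest scores of 25, 50 and 23. The guide 1 peak scoring 50, at 160990 to 161260, overlapped no peak of the other lists. The RefSeq table gives RNA45SN5 (gene ID 100861532) at 105424 to 118780 of an unplaced sequence without naming that sequence, and it is taken here as GL000220.1 from background knowledge. Within these positions the control had 1 peak covering 1243 bp, guide 1 had 2 covering 1524 bp and guide 2 had 2 covering 1899 bp. In each list a peak lay within the 18S part (RNA18SN5, 109078 to 110946), at 109525 to 110767 in the control, 109655 to 110344 with guide 1 and 109507 to 110536 with guide 2. Past the end of the unit, coverage was 10450, 13100 and 5111 bp. KI270733.1, unlocalised on chromosome 22 and also known for ribosomal DNA, had 5, 6 and 6 peaks over 5193, 3698 and 4320 bp. Covered length on KI270733.1 was lower in both guides, at 71.2% and 83.2% of the control, while its summed score was higher (84, 104 and 115).

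The highest-scoring peak of each of the 3 lists lay on these sequences. Of the 10 highest-scoring peaks of each whole list, 6 lay outside the chromosomes, and they were the same 6 peaks on 5 sequences in every list. Sequences outside the chromosomes held 3.88%, 3.74% and 3.27% of all peaks. The 6 peaks covered 8.87, 8.73 and 8.75 kb and carried 48.9%, 52.4% and 48.7% of the summed score outside the chromosomes.

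The first of them was on the patch ML143380.1, at 79000 to 80181 in the control, with scores of 9511, 6751 and 2339. Its rank was 1 in the control and guide 1 lists and 4 in the guide 2 list. KI270438.1, unplaced, held a pair of them. At 109134 to 112457 the scores were 6654, 5086 and 3062, and at 103883 to 105137 they were 4065, 3254 and 1712. The others lay on short unplaced sequences. KI270310.1 had scores of 3716, 3330 and 2272, KI270304.1 of 3522, 3063 and 2105, and KI270303.1 of 3348, 3906 and 2825. Scores were ordered control, guide 1, guide 2 on all but KI270303.1, where guide 1 was highest. The scale of the score and the depth behind it are unknown, so the ratio between lists is a description only.

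At 109134 to 112457 of KI270438.1, the guide 1 peak ran from 109123 to 112459 and the guide 2 peak from 109128 to 112456. Of the 12 control peaks outside the chromosomes with a score of at least 500, all 12 had a peak in each guide. Both edges were within 50 bp for 8 with guide 1 and 9 with guide 2. The largest shift of an edge among the 12 was 108 bp with guide 1 and 3214 bp with guide 2. On the chromosomes 67 control peaks scored at least 500, and their overlap and edges are not given here. Over whole lists, 13.8% of control peaks scoring at least 50 overlapped no guide 1 peak and 19.3% no guide 2 peak. Over all shared control peaks outside the chromosomes, both edges matched within 50 bp for 14.8% with guide 1 (95% Wilson interval 11.6 to 18.9) and 15.6% with guide 2 (11.7 to 20.5). On the chromosomes these shares were 9.37% (8.81 to 9.97) and 8.93% (8.33 to 9.57). In the gene-free stretches they were 11.4% (10.7 to 12.1) and 9.77% (9.11 to 10.5). Against the stretches the intervals overlapped with guide 1 and were separate with guide 2. The intervals cover counting error only, and peaks of 1 sequence are not independent.

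The weak peaks beside these strong ones recurred only in part, and guide 2 had fewer of them. KI270438.1 had 13, 13 and 5 peaks, of which 3, 3 and 2 scored above 32. Another guide 2 peak, at 101464 to 101984, scored exactly 32 and overlapped peaks of both other lists. Of the 13 control peaks of KI270438.1, strong and weak, 8 overlapped guide 1, 5 overlapped guide 2 and 5 overlapped neither. On KN196487.1 the peak at 286 to 3017 had scores of 1999, 1610 and 641. The other 22 control peaks of KN196487.1 scored at most 34, and guide 2 had 5 others. Of all 23 control peaks of this sequence, 15 overlapped guide 1, 5 overlapped guide 2 and 6 overlapped neither. Over whole lists 42.7% of control peaks overlapped guide 1, 35.9% guide 2 and 50.2% neither.

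**Figure D4:**
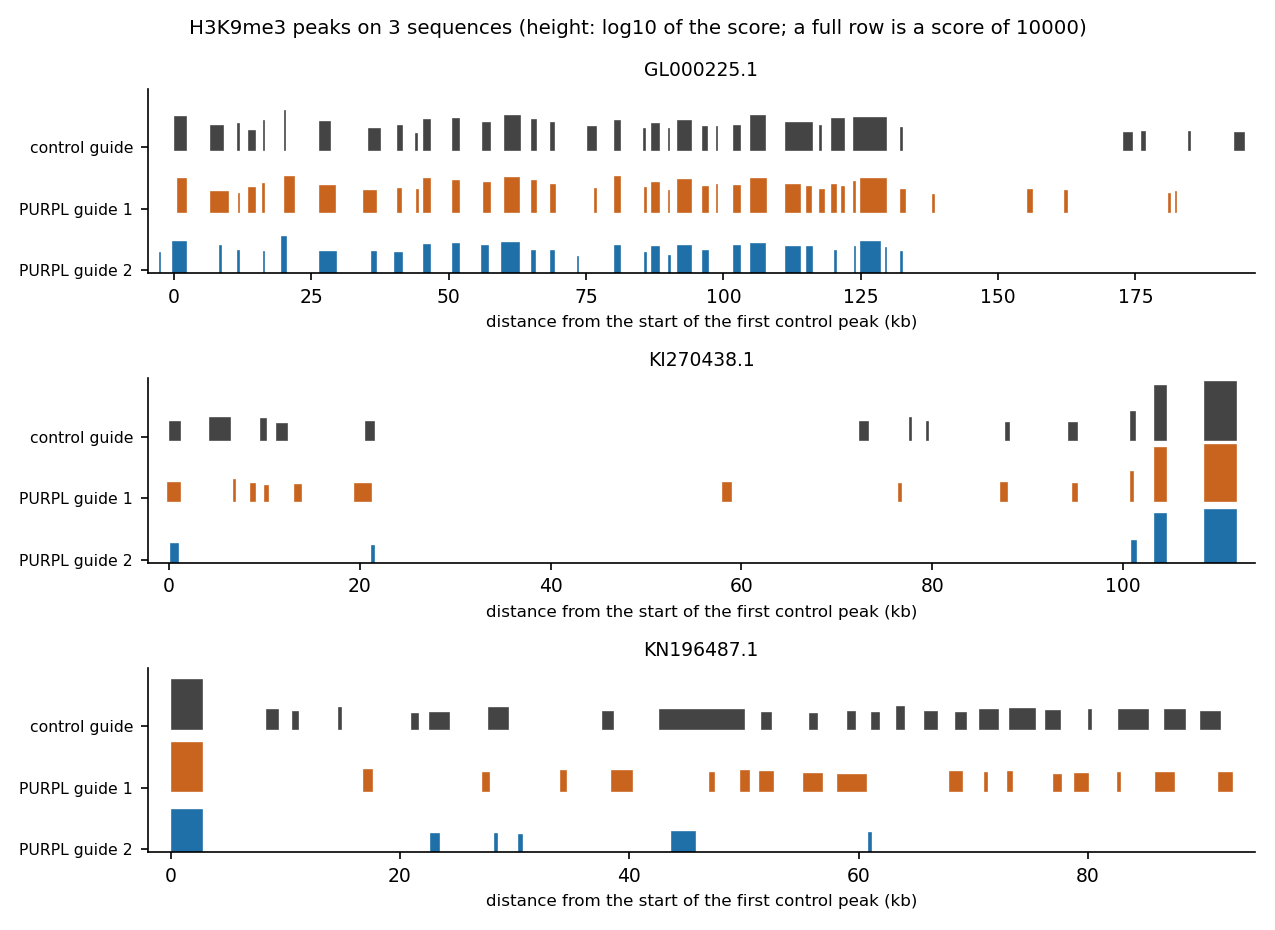
Boxes give the peaks of each list on GL000225.1, KI270438.1 and KN196487.1, by distance from the start of the first control peak (kb), with height as the log10 of the score. On GL000225.1 one series of peaks recurs in all 3 lists. On KI270438.1 and KN196487.1 the tall peaks recur, with scores of 6654, 5086 and 3062 for the tallest of KI270438.1. The low ones recur only in part.

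The widest control peak, on GL000226.1 at 742 to 14979, was 14238 bp wide, and its guide counterparts measured 14292 and 14042 bp. Its scores were 406, 252 and 187. The other 2 of the 3 widest control peaks were broken up in the guide lists. On GL000224.1 the peak at 43754 to 57427 was 13674 bp wide with a score of 27. It overlapped 4 guide 1 peaks of 1175 to 4620 bp, which covered 59.5% of it, and 3 guide 2 peaks of 363 to 840 bp, which covered 9.46%. On KI270744.1 the peak at 112945 to 125344 was 12400 bp wide with a score of 33. It overlapped 2 guide 1 peaks, the wider of 8943 bp, which covered 74.6% of it, and 3 guide 2 peaks of at most 1732 bp, which covered 29.7%.

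Peak by peak, 39.7% of the 917 control peaks overlapped guide 1 by at least 1 bp (Wilson interval 36.6 to 42.9) and 28.7% overlapped guide 2 (25.8 to 31.7). On the chromosomes the shares were 42.8% (42.2 to 43.4) and 36.2% (35.6 to 36.8). Put as absence, 60.3% and 71.3% of the control peaks had no counterpart, against 57.3% and 64.1% over whole lists. In 497 cases, 54.2% (51.0 to 57.4), a control peak overlapped neither guide, against 50.2% over whole lists. For the shares overlapped, the interval for guide 2 lies below that of the chromosomes as a whole, and for guide 1 the intervals overlap. In the gene-free stretches 65.2% of control peaks overlapped guide 1 and 60.9% guide 2, and on the rest of the chromosomes 18.5% and 9.40%. Overlap with neither guide was found for 24.1% in the stretches and 78.1% on the rest. If an overlap had to cover 50% or more of the control peak, the shares outside the chromosomes were 26.5% and 18.4%, and with equal list sizes they were 53.7% and 48.3%. The highest-scoring control peaks absent from both guides were modest, with scores of 55 on KI270538.1 (53292 to 54126), 54 on KI270720.1 (3674 to 4011) and 48 on KI270322.1 (8223 to 8789).

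Overlap depended steeply on score. Of control peaks scoring 10 to 14, 18.8% (Wilson interval 13.5 to 25.5) overlapped guide 1 and 8.75% (5.28 to 14.2) guide 2. On the chromosomes these shares were 11.2% (10.2 to 12.2) and 6.35% (5.61 to 7.17). The weakest peaks outside were thus shared more often with guide 1 than on the chromosomes as a whole, with separate intervals. For guide 2 the intervals overlapped. The gene-free stretches had higher shares, 24.5% (21.5 to 27.8) and 22.1% (19.2 to 25.3). Their interval overlapped that outside the chromosomes with guide 1 and lay above it with guide 2. At scores of 20 to 29 the shares were 37.4% (31.7 to 43.4) and 23.3% (18.6 to 28.9), against 46.2% (44.97 to 47.4) and 39.6% (38.4 to 40.8) on the chromosomes. The gene-free stretches had 61.4% and 59.0% in that class. At scores of 50 and over, 91 of 93 control peaks overlapped guide 1 and 88 guide 2. These shares, 97.8% (92.5 to 99.4) and 94.6% (88.0 to 97.7), stood above those of the chromosomes, 85.7% (84.3 to 87.0) and 80.2% (78.6 to 81.7). The gene-free stretches had 86.1% (84.7 to 87.4) and 80.9% (79.3 to 82.4). Over whole lists 13.8% and 19.3% of such control peaks had no counterpart. This class has no upper limit, and 12 of the 93 peaks scored at least 500, against 67 of 2587 on the chromosomes. Scores within the class were thus not matched between the places compared. The 93 peaks lay on 43 sequences, 18 of them on GL000225.1. Without that sequence the shares were 97.3% (90.8 to 99.3) and 93.3% (85.3 to 97.1).

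**Figure D5:**
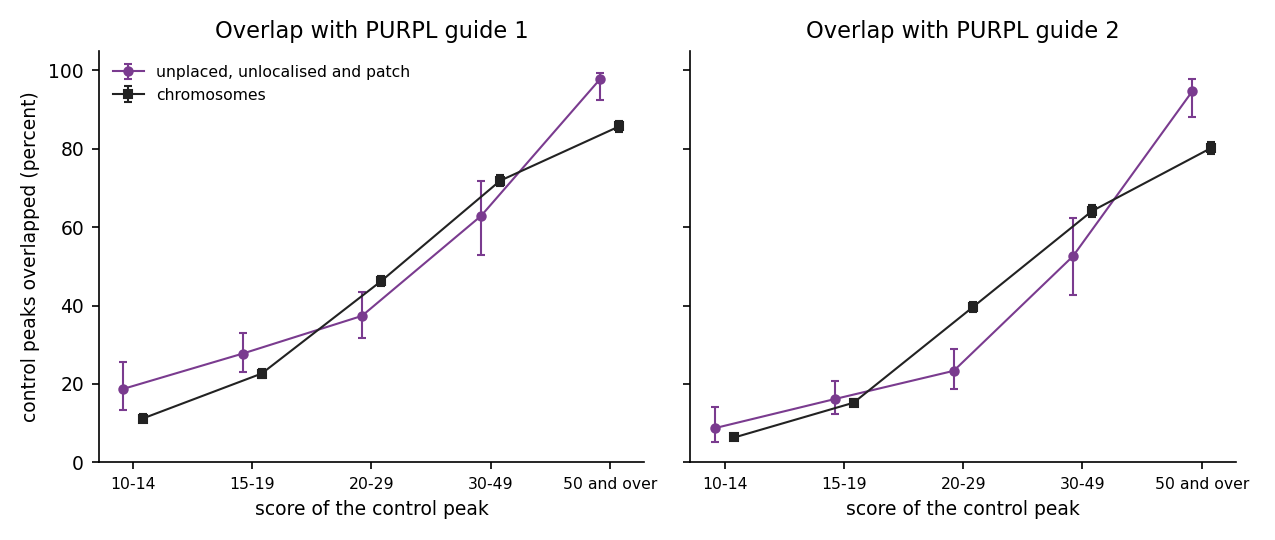
Points give the percent of control peaks that overlap a guide 1 peak (left) or a guide 2 peak (right) by at least 1 bp, in 5 classes of the control score, outside the chromosomes (circles) and on them (squares). Bars are 95% Wilson intervals, which cover counting error only. At scores of 50 and over the circles, at 97.8% and 94.6%, lie above the squares, and at 20 to 29 they lie below. The class of 50 and over has no upper limit, and scores within it were not matched. The squares pool all parts of the chromosomes. In the gene-free stretches, not drawn, the shares were 24.5% and 22.1% at scores of 10 to 14.

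Guide peaks outside the chromosomes lay on control peaks less often than guide peaks on the chromosomes as a whole. With guide 1, 31.2% of 551 peaks overlapped no control peak, against 21.2% over its whole list. With guide 2, 30.3% of 399 did, against 17.7%. The shares that overlapped a control peak were 68.8% (Wilson interval 64.8 to 72.5) and 69.7% (65.0 to 74.0), while on the chromosomes they were 79.2% (78.5 to 79.8) and 82.8% (82.1 to 83.4). Between the guides, no guide 2 peak was found at 59.7% of the guide 1 peaks, against 45.6% over the whole list, and no guide 1 peak at 41.9% of the guide 2 peaks, against 31.8%. As with length, these sequences lay between the divisions of the chromosomes. A guide 2 peak was found at 40.3% of their guide 1 peaks, against 69.7% in the gene-free stretches and 19.4% on the rest of the chromosomes. A guide 1 peak was found at 58.1% of their guide 2 peaks, against 74.7% and 41.5%.

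Peaks of both guides that overlapped each other without a control peak formed 21 pairs on 16 sequences. They came from the 172 guide 1 and 121 guide 2 peaks here that overlapped no control peak. No such pairs were counted on the chromosomes, so the number is a description only. Ranked by the lower of the 2 scores, the first 3 were on KI270762.1 (202842 to 203254 with guide 1, score 34, and 202789 to 203332 with guide 2, score 33), KI270911.1 (103810 to 104877, score 37, and 103815 to 104148, score 33) and KI270757.1 (828 to 1056, score 29, and 850 to 1164, score 25). KI270762.1, an alternate sequence, had 2, 6 and 6 peaks over 3226, 3425 and 3685 bp. KI270911.1, also alternate, was the sole sequence that both guides marked and the control did not.

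Across sequences, 81 of the 210 had peaks in all 3 lists, and these held 85.2% of the control length. Another 69 had control peaks alone, with 114 peaks over 81.0 kb, and 44 of the 69 had a single peak. Guide 1 alone marked 7 sequences and guide 2 alone 18, with at most 1 and 2 peaks each. Sequences with at least 5 control peaks and none in either guide were GL000218.1 (7 peaks, 7486 bp), KI270763.1 (5 peaks, 2980 bp) and KV880768.1 (5 peaks, 1900 bp), and no control peak on them scored above 28.

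Sequences whose last peak in any list ended within the first 5000 bp numbered 43, and 16 of them had peaks in all 3 lists. They held 43.8, 26.0 and 17.7 kb (59.3% and 40.5% left), a small part of the length. Their part of the summed score was 23.7%, 28.4% and 31.5%, most of it from KI270310.1, KI270304.1 and KI270303.1. The other 40 held 6.89%, 7.13% and 7.03% of the same summed score. With these 3 also left out of the total, their part was 8.28%, 9.06% and 9.31%. Of all peaks outside the chromosomes, 25, 20 and 12 started within 200 bp of the first base of their sequence, with median scores of 40, 41 and 77.5 against 19, 20 and 22 for the other peaks.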

How the data were processed

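By its name, each deposited file lists H3K9me3 peaks of 1 cell line against its own input, with the authors' score per peak in whole numbers. The lists carry no strand. Per the submitters' processing notes, hg38 and GRCh38.p13 were used with MACS2 2.2.9.1, Bowtie2 2.4.2, deepTools 3.5.1 and GATK. The sources used here do not give peak-calling settings, multi-mapping rules or read numbers. Peaks within a list did not overlap. Lists were assigned to samples by the file names, which match the samples' titles, although the peak names hold other names of guides. Positions are 1-based.

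Peaks, covered length and score were summed per sequence. Overlap meant at least 1 bp. Intervals of shares are 95% Wilson intervals and cover counting error only. With 1 library per cell line no test was made. Alternatives were a score limit, equal list sizes, merging within 1000 bp, 50% overlap, other minimum peak numbers and subsets of sequences.

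The members, the comparisons and the list of alternatives were chosen with earlier results of these data known. Named by rule were the 10 sequences with the longest control coverage, the 3 with the largest and smallest shares left among those with at least 10 control peaks, sequences with at least 5 control peaks that were longer in a guide or empty in both, sequences with peaks in both guides alone, and GL000220.1 and KI270733.1. The rule also named the 3 highest-scoring peaks of each list, the 3 widest of the control and, by score, the first 3 found in the control alone and in both guides alone. Other sequences, the score classes and the values without single sequences were chosen after seeing the data. Gene positions came from RefSeq, GRCh38.p14. The overlap calculation was tested on simulated data made from the 917 control peaks, where 100% of peaks over 5 runs had the overlap they were given. Scripts ran in Python 3.11.15 with pandas 2.3.3, numpy 2.4.6, matplotlib 3.10.9 and scipy 1.17.1.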

Additional observations from a re-analysis of the deposited data

Results flagged for a closer look

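On 4 sequences with at least 5 control peaks the guides stood on opposite sides of the control in covered length, a difference between the guides that was not tested and has 1 library on each side. KI270744.1 had 101.1% of the control length with guide 1 and 50.7% with guide 2. KI270894.1 had 102.8% and 95.01%, GL000220.1 115.8% and 61.5%, and ML143371.1 117.3% and 43.6%.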

How the results depend on the processing

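No paired analysis was possible because each cell line has 1 H3K9me3 library, and leaving out a replicate could not be done for the same reason. Values are for guide 1, then guide 2, and the cause of a change was not tested. With scores at or above 22, the median of the pooled lists, 66.8% and 54.0% of the length and 71.1% and 60.6% of the peaks were left outside the chromosomes, and the ratio to the chromosomes was 1.36 and 1.49. GL and KI names then kept 70.0% and 57.1%, and patch names 41.4% with guide 2. The share of peaks outside the chromosomes was then 3.09% in the control and 3.19% with guide 1, and the share of length 2.48%, 3.35% and 3.65% in control, guide 1 and guide 2. Control peaks overlapped the guides in 45.6% and 39.4% of cases, and 7 and 9 sequences had at most 50% of the control length.

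With the same number of highest-scoring peaks in each list, 91.6% and 68.0% of the length and 110% and 98.3% of the peaks were left, and the ratio was 1.37 and 1.19. GL and KI names kept 94.6% and 71.4%, and patch names 80.6% and 55.4%. The control had 3.31% of its peaks and 2.64% of its length outside the chromosomes. Control peaks overlapped the guides in 53.7% and 48.3% of cases, guide peaks overlapped the control in 50.7% and 52.6%, and 2 and 8 sequences had at most 50% left. With summed score in place of length, 76.9% and 46.6% was left.

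Asking for 50% of a peak to be covered gave 26.5% and 18.4% for control peaks and 56.3% and 59.9% for guide peaks. Without patches, the sequences outside the chromosomes held 3.09%, 2.99% and 2.61% of the peaks and 2.73%, 2.95% and 2.58% of the length of the control, guide 1 and guide 2 lists. Among GL and KI names, unlocalised sequences kept 64.8% and 48.3%, while with guide 2 unplaced ones kept 30.2% and alternate ones 50.6%. At most 50% of the control length was left on 111 and 141 of 184 sequences when 1 control peak was enough, and on 9 and 20 of 26 when 10 were needed. Relative to the length left on the chromosomes, an alternative chosen after seeing the data, it was 11 and 25 of 50. These counts leave out the chromosomes. Merging peaks within 1000 bp or leaving out GL000224.1 moved none of these results beyond the limits used.

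Of 176 values for 22 named sequences, 128 kept their side of the control and moved little, 18 moved and 30 turned. With merged peaks the turned values were GL000225.1 at 104%, KI270744.1 at 97.1% and KI270894.1 at 97.5%, all with guide 1. With equal list sizes guide 1 had KI270442.1 at 139%, GL000225.1 at 108%, KN538372.1 at 108%, KI270742.1 at 151%, KN196475.1 at 145% and GL000221.1 at 188%. Guide 2 had KI270742.1 at 114%, KN196475.1 at 155%, GL000221.1 at 208%, GL000220.1 at 267% and KI270733.1 at 120%. At or above the median score guide 1 had GL000225.1 at 106%, KI270742.1 at 391%, KN196475.1 at 167%, KI270744.1 at 93.8% and GL000220.1 at 79.6%, and guide 2 had KN196475.1 at 130% and KI270733.1 at 113%. With summed score guide 1 had GL000225.1 at 103%, ML143345.1 at 111%, ML143377.1 at 70.1%, KI270894.1 at 67.7%, ML143371.1 at 54.5% and KI270733.1 at 124%, and guide 2 had ML143377.1 at 98.1%, GL000220.1 at 109% and KI270733.1 at 137%.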
